A study of Drosophila melanogaster with 8 samples.

Results

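Expression of 10 enzymes of mitochondrial fatty acid beta-oxidation was measured in the Malpighian tubules of Drosophila melanogaster, the organs of excretion and water balance of the fly. The 10 genes were taken by their CG numbers from the 13942 genes listed: whd (CG12891), CPT2 (CG2107), Mcad (CG12262), Arc42 (CG4703), CG3902, Echs1 (CG6543), scu (CG7113), Mtpalpha (CG4389), Mtpbeta (CG4581) and yip2 (CG4600). All 10 were found and all 10 passed the minimum of 12 reads summed over the libraries, which left 12580 genes for testing. The genes were chosen by pathway and not by a measured value, although earlier results of the same libraries were known when they were chosen. From these libraries the study had reported fatty acid beta-oxidation as enriched among male-biased and among Africa-biased genes. The counts below are therefore not independent of that report. In the deposited files whd, Mtpbeta and Echs1 lie on chromosome arm 2R, CPT2, Mcad and CG3902 on 3L, yip2 and Mtpalpha on 2L, Arc42 on 3R and scu on the X chromosome.

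Poly(A) RNA of tubules was sequenced from adult males and females of a European (Netherlands) and an African (Zimbabwe) population, in 4 groups: European males, African males, European females and African females, with 2 biological replicates each and 8 libraries in all. All flies were untreated and kept on the same food at 22 degrees, and per the labels they were 2 to 4 days old. Each library is a pool of whole tubules from several isofemale lines of 1 population, so it gives no value for a single line or fly, and each region is represented by 1 population. The study compared the sexes and the populations, and asked whether the difference between the sexes is alike in both populations.

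Beta-oxidation takes fatty acids apart inside mitochondria. A long-chain acyl group is first moved across the mitochondrial membranes on carnitine, and then passes repeatedly through 4 reactions (dehydrogenation, hydration, a second dehydrogenation and thiolytic cleavage), each turn of which releases acetyl-CoA. The acetyl-CoA enters the tricarboxylic acid cycle, and the electrons of the first dehydrogenation reach the respiratory chain through an electron transfer flavoprotein. Tubule cells are rich in mitochondria, which supply ATP for the proton pump that drives secretion.

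Levels are given as scaled RPKM. These are the RPKM that the authors deposited (reads per kilobase of transcript, scaled to the reads of the library). Each was divided by a factor for the composition of its library. The factor lay between 0.928 and 0.9945 in African and between 1.021 and 1.04 in European libraries. This scaling therefore lowered European levels relative to African levels. The libraries held 19528634 to 27099855 reads, and the 10 genes held between 777 and 19918 reads in a library, so the counting error of a difference between replicates was 0.0150 to 0.0676 on the log2 scale, largest for Arc42 and CPT2. A gene was called changed when its adjusted p was 0.05 or less in a linear model fitted over all 12580 genes with limma, with Benjamini-Hochberg adjustment. Log2 differences are of log2(scaled RPKM + 0.1), and errors beside them are standard errors. The SD beside a mean of 4 libraries includes the difference between the 2 groups that were averaged. In bulk tissue, fewer cells of a type and less RNA in each cell cannot be told apart. Both African male libraries stood apart by their midgut digestive genes, replicate 1 more than replicate 2, and the main counts are therefore also given without these libraries, a choice made after seeing the data.

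All 10 genes were well expressed, between the 79.0th and the 97.8th percentile of the genes tested. The order of their mean levels over the 8 libraries was CG3902 at 431 scaled RPKM, Echs1 at 406, Mcad at 278, scu at 256, yip2 at 234, whd at 93.3, Mtpbeta at 90.6, Mtpalpha at 49.9, Arc42 at 33.2 and CPT2 at 22.0. The bottom of this order was stable: Mtpalpha, Arc42 and CPT2 took the last 3 places in every library. Neighbours higher up changed places between libraries. CG3902 was above Echs1 in 5 libraries, namely every African library and European male replicate 1, and below it in 3, all European. Likewise whd and Mtpbeta changed places. Mcad, scu and yip2 lay between 189 and 334 scaled RPKM, with overlapping ranges.

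Males had higher levels than females for 5 of the 10 genes, and none was lower in males. The 5 were yip2, CG3902, Arc42, Echs1 and Mcad, with differences of 1.39-fold to 1.14-fold. Of all genes tested, 7.71% were called higher in males and 4.15% lower. The log2 difference was positive for all 10, with a median of 0.212, beside 0.0147 over all genes tested. An unadjusted p under 0.05 was found for 8 of the 10, and for 3437 of all 12580 genes tested. In 7 of the 10 both male libraries lay above both female libraries within each population, which held for 14.0% of all genes tested. Without both African male libraries, which leaves European tubules alone for the comparison of the sexes, all 10 differences stayed positive and 2 of the 10 were called, yip2 (0.38, adjusted p = 0.0329) and CG3902 (0.36, adjusted p = 0.0210).

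European tubules had lower levels than African tubules for 5 of the 10 genes, and none was higher in Europe. The 5 were CPT2, Arc42, Mcad, CG3902 and Mtpbeta, at 0.750 to 0.843 times the African level. With library size alone as scaling 4 of them were called, and the log2 difference of Mcad was -0.19 instead of -0.28. Of all genes tested, 5.45% were called lower in Europe and 6.49% higher. The log2 difference was negative for 9 of the 10, the exception being Mtpalpha, with a median of -0.24 beside 0.00467 over all genes. An unadjusted p under 0.05 was found for 7 of the 10, and for 3532 of all 12580 genes tested. In 7 of the 10 both African libraries were above both European libraries within each sex, beside 12.8% of all genes. Arc42, Mcad and CG3902, the acyl-CoA dehydrogenases among the 10, were called in both comparisons, which rest on the same 8 libraries. Without both African male libraries, which leaves females alone for the comparison of the populations, 9 of the 10 differences stayed negative and 2 were called, Mcad (-0.29, adjusted p = 0.0450) and CG3902 (-0.31, adjusted p = 0.0467).

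**Figure D1:**
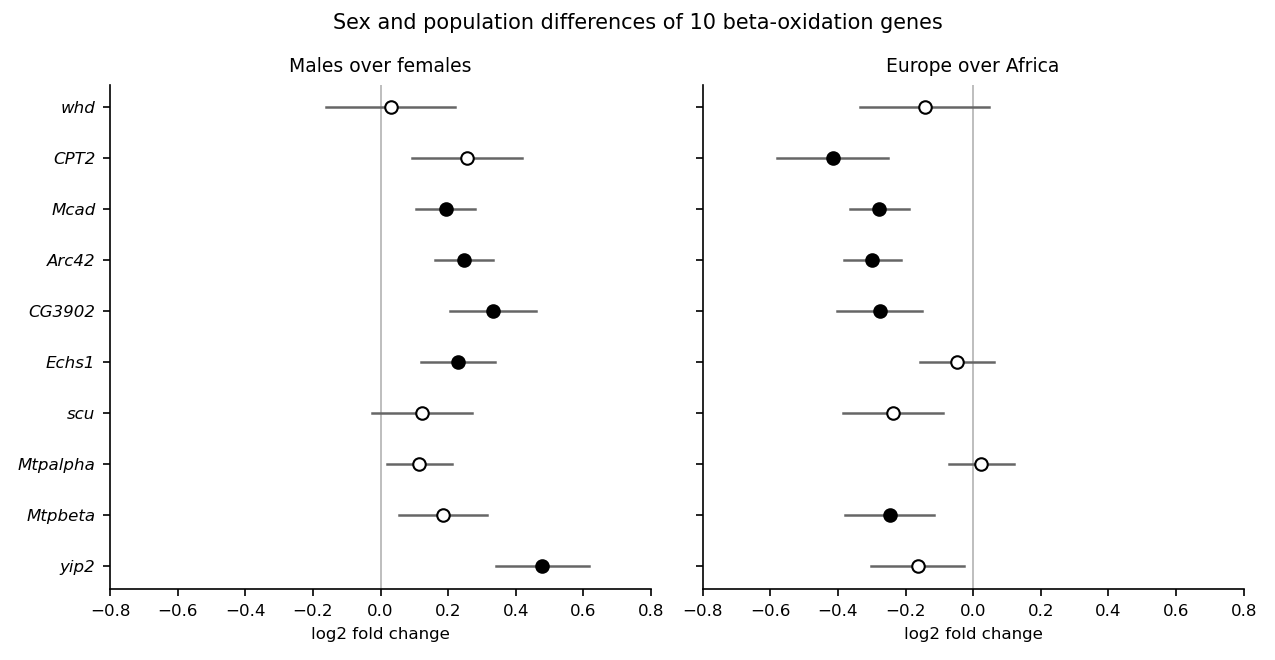
Log2 differences of the 10 genes between males and females (left panel) and between Europe and Africa (right panel), with 95% intervals of the linear model as lines; filled points were called at an adjusted p of 0.05 or less, open points were not. Points on the left lie between 0.03 (whd) and 0.48 (yip2), and points on the right between -0.42 (CPT2) and 0.02 (Mtpalpha).

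The first step is the carnitine shuttle. The whd gene (withered) encodes carnitine palmitoyltransferase 1, which loads long-chain acyl groups onto carnitine at the outer mitochondrial membrane and is the step at which entry is controlled. CPT2 encodes the enzyme that returns them to coenzyme A on the inner side. The level of whd was 87.1 and 90.8 scaled RPKM in European males, 98.8 and 99.5 in African males, against 96.4 and 80.2 in European females and 86.2 and 108 in African females. The female replicates lay so far apart that their range contained every male library. Its sex difference was 0.03 ± 0.08 on the log2 scale (95% interval -0.16 to 0.22, adjusted p = 0.862, limma), and its population difference was -0.14 ± 0.08 (interval -0.34 to 0.05, adjusted p = 0.303). The sex difference turned negative without African female replicate 1 (-0.04) or European female replicate 2 (-0.03). The intervals of whd include the difference called in Mcad for sex and those called in Mcad, Arc42, CG3902 and Mtpbeta for population.

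CPT2 stood at 19.6 and 21.5 scaled RPKM in European males, 26.7 and 27.6 in African males, against 17.6 and 16.4 in European females and 25.4 and 20.8 in African females. African libraries were higher within each sex, and the lowest African value, in a female library, overlapped the European male values. CPT2 had the largest population difference of the 10, with means of 18.8 ± 2.24 in European and 25.1 ± 3.05 scaled RPKM in African libraries (SD, n = 4 each), a log2 difference of -0.42 ± 0.07 (adjusted p = 0.0107, limma). Its sex difference of 0.26 ± 0.07 missed the threshold (adjusted p = 0.0570) and passed it in 2 of the 16 alternatives, with voom on the reads (0.0498) and without African female replicate 1 (0.0301). With no other gene did the replicates of 1 group differ as much as with whd and CPT2, by 1.25 and 1.22 times in African females, where whd was higher in replicate 2 and CPT2 in replicate 1. The level of whd was 3.39 to 5.47 times that of CPT2.

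Acyl-CoA dehydrogenases open each turn of the cycle by placing a double bond in the acyl chain, and differ in the chain length they accept. Mcad encodes the medium-chain enzyme, Arc42 a predicted short-chain enzyme, and CG3902 a predicted short or branched-chain enzyme, whose human relative also acts in isoleucine breakdown. Mcad was at 273 and 266 scaled RPKM in European males, 315 and 334 in African males, against 239 and 229 in European females and 278 and 293 in African females. All 4 African libraries were above all 4 European libraries, and males were above females within each population. The log2 difference between Europe and Africa was -0.28 ± 0.04 (adjusted p = 0.00433, limma), and that between males and females 0.19 ± 0.04 (adjusted p = 0.0193). The population call held in all 16 alternatives. The sex call was lost in 5 of them, without African female replicate 1, either European female library or either European male library (adjusted p = 0.0513 to 0.0905).

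Arc42 was at 31.1 and 33.0 scaled RPKM in European males, 40.5 and 39.6 in African males, against 27.1 and 27.8 in European females and 33.9 and 32.5 in African females. Its replicates differed by no more than 1.06 times, and the 4 groups fell in the order African males, African females and European males together, European females. The log2 difference was 0.25 ± 0.04 between males and females (adjusted p = 0.00822) and -0.30 ± 0.04 between Europe and Africa (adjusted p = 0.0028), the smallest adjusted p of the 10 genes for population. Both calls held in all 16 alternatives and were lost without both African male libraries (0.23, adjusted p = 0.0765 for sex and -0.28, adjusted p = 0.0560 for population).

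CG3902, the most abundant of the 10 on average, had 448 and 429 scaled RPKM in European males, 485 and 559 in African males, against 329 and 354 in European females and 418 and 426 in African females. All 4 male libraries were above all 4 female libraries, with means of 480 ± 57.2 in males and 382 ± 47.7 in females (SD, n = 4 each; log2 difference 0.33 ± 0.05, adjusted p = 0.0112). The population difference was -0.28 ± 0.05 (adjusted p = 0.0187, limma). The sex call held in all 16 alternatives, and the population call was lost without either African female, either European female library or European male replicate 2 (adjusted p = 0.0509 to 0.0732). CG3902 was 11.97 to 14.4 times as abundant per length as Arc42 in every library, and Mcad 7.77 to 9.02 times.

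**Figure D2:**
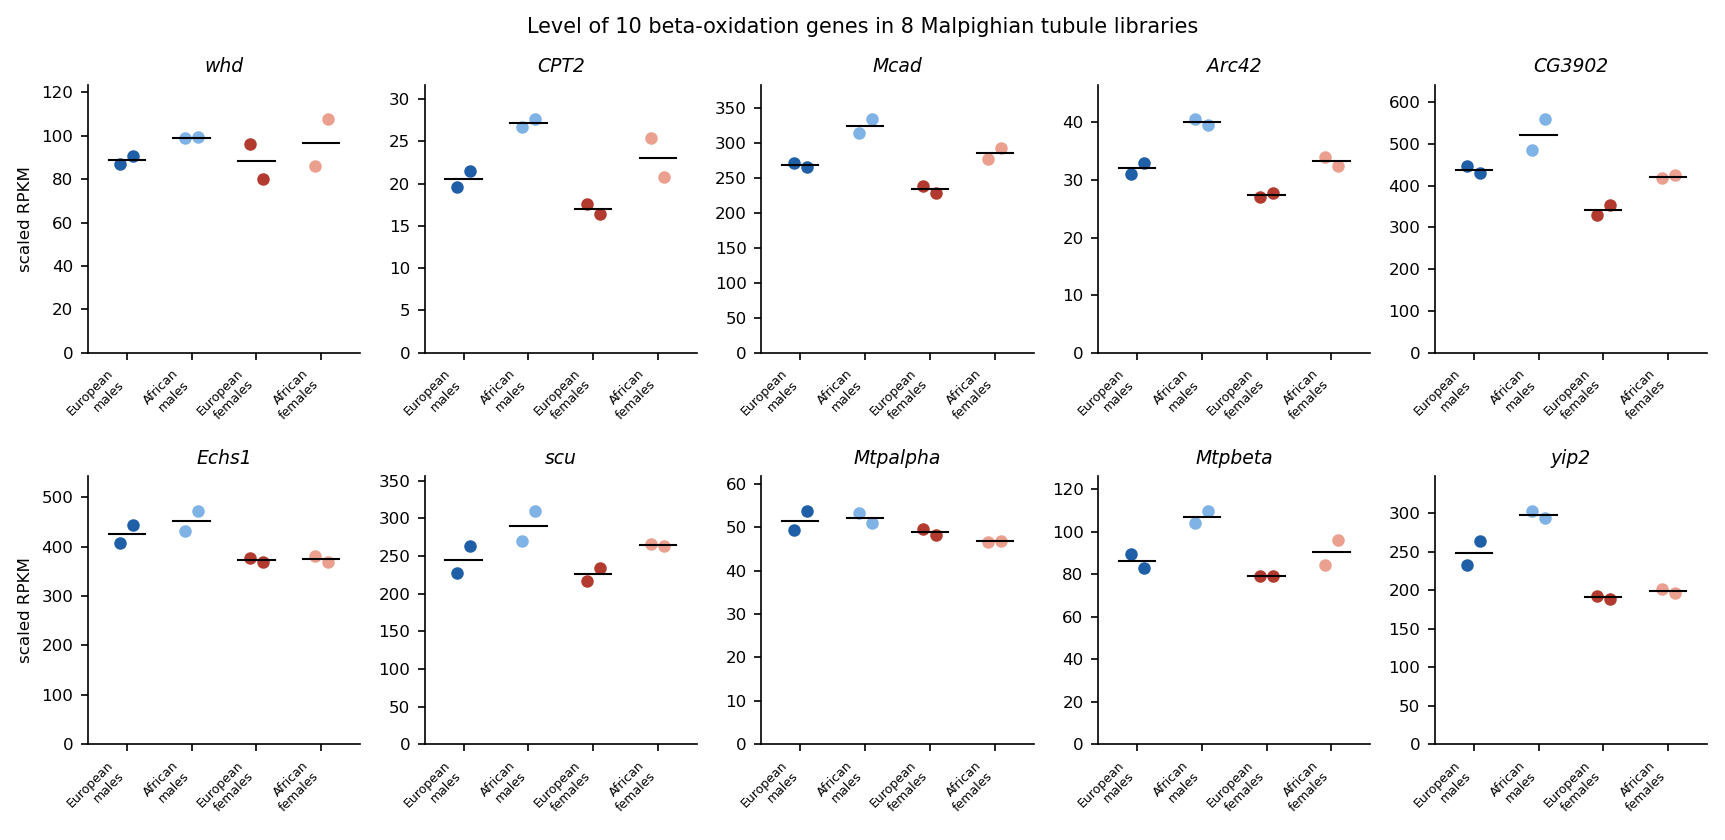
Scaled RPKM (vertical axis, from 0) of the 10 genes in the 4 groups (horizontal axis), ordered by step of the pathway; points are single libraries and black lines group means of 2. In Mcad, Arc42 and CG3902 African males are highest and European females lowest, while in yip2 all 4 male libraries (233 to 303) stand above all 4 female libraries (189 to 202).

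Echs1 encodes the short-chain enoyl-CoA hydratase, which adds water to the double bond, a reaction shared with the breakdown of branched-chain amino acids. Echs1 was at 408 and 443 scaled RPKM in European males, 432 and 473 in African males, against 377 and 369 in European females and 380.5 and 369.6 in African females. Males of both populations were above all females, and the female libraries differed little. The log2 difference between males and females was 0.23 ± 0.05 (adjusted p = 0.0232, limma), and between Europe and Africa -0.05 ± 0.05 (interval -0.16 to 0.06, adjusted p = 0.553), which turned to 0.04 when library size alone was used for scaling. The sex call was lost without either African female, either European female library or European male replicate 2 (adjusted p = 0.0571 to 0.0895).

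The next step is a dehydrogenation of the hydroxyacyl group. The scu gene (scully) encodes a mitochondrial 3-hydroxyacyl-CoA dehydrogenase of short chains, which also acts on steroids. It is the one X-linked gene of the 10. Its level was 227 and 262.6 scaled RPKM in European males, 270.4 and 309.8 in African males, against 217 and 235 in European females and 265 and 263.2 in African females. Every African library was above every European library, though European male replicate 2 and African female replicate 2 lay less than 1 scaled RPKM apart, and the sexes overlapped. The population difference of -0.24 ± 0.06 missed the threshold (adjusted p = 0.0541, limma) but passed it with the replicate number as a block (adjusted p = 0.0225), with voom on the reads (0.0464) and without African male replicate 1 (0.0428). The sex difference was 0.12 ± 0.06 (interval -0.03 to 0.27, adjusted p = 0.267).

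Long chains are handled by the mitochondrial trifunctional protein, a complex of alpha and beta subunits. Mtpalpha carries the long-chain hydratase and hydroxyacyl dehydrogenase activities, and Mtpbeta the long-chain thiolase. Mtpalpha was at 49.3 and 53.8 scaled RPKM in European males, 53.4 and 51.0 in African males, against 49.7 and 48.3 in European females and 46.6 and 47.0 in African females. These 8 values lay within 46.6 to 53.8, the narrowest relative range of the 10 genes. Neither difference was called, with 0.11 ± 0.04 for sex (interval 0.02 to 0.21, adjusted p = 0.120) and 0.02 ± 0.04 for population (interval -0.07 to 0.12, adjusted p = 0.753).

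Mtpbeta was at 89.7 and 82.8 scaled RPKM in European males, 104 and 109.7 in African males, against 79.0 and 79.3 in European females and 84.2 and 96.2 in African females. The African male libraries stood highest, and European male and African female values overlapped. The log2 difference between Europe and Africa was -0.25 ± 0.06 (adjusted p = 0.0314, limma), and between males and females 0.19 ± 0.06 (adjusted p = 0.0766). This population call was the least firm of the 5: it was lost with library size alone as scaling (-0.16, adjusted p = 0.0686) and without any 1 library other than African female replicate 1 (adjusted p = 0.0551 to 0.0923). The ratio of Mtpbeta to Mtpalpha was 1.82 and 1.54 in European males, 1.95 and 2.15 in African males, against 1.59 and 1.64 in European females and 1.81 and 2.05 in African females. It was higher in African than in European libraries, apart from an overlap between the sexes at 1.82 and 1.81, and the difference between the subunits was not tested.

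Thiolysis closes the turn, and yip2 (yippee interacting protein 2) encodes a mitochondrial 3-ketoacyl-CoA thiolase. The level of yip2 was 233 and 263 scaled RPKM in European males, 303 and 293 in African males, against 193 and 189 in European females and 202 and 196 in African females. Female libraries spanned a narrow range, and all 4 male libraries lay above it, those of African males farthest. It had the largest sex difference of the 10 genes, with means of 273 ± 31.7 in males and 195 ± 5.48 scaled RPKM in females (SD, n = 4 each), a log2 difference of 0.48 ± 0.06 (adjusted p = 0.00483, limma). The call held in all 16 alternatives, with values of 0.44 to 0.54, and without both African male libraries, at 0.38. Its population difference of -0.16 ± 0.06 was not called (interval -0.30 to -0.03, adjusted p = 0.121).

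No gene of the 10 was called for an interaction of sex and population with limma, and 0 had an unadjusted p under 0.05. Of all 12580 genes tested 7, or 0.0556%, were called, and 964 had an unadjusted p under 0.05. The interaction terms, the sex difference in Europe minus that in Africa, lay between -0.21 ± 0.10 for yip2 (adjusted p = 0.702) and 0.06 ± 0.11 for CG3902 (adjusted p = 0.963). For yip2 the log2 difference between males and females was 0.37 in Europe and 0.58 in Africa, each with a standard error of 0.07. With 2 libraries a group, this does not show that the sex difference of any of the 10 genes is the same in both populations.

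Most of the genes also varied together over the libraries, whd and Mtpalpha less than the others. Summed over the 10 genes, scaled RPKM were 1865 and 1947 in European males, 2129 and 2296 in African males, against 1625 and 1627 in European females and 1820.0 and 1852 in African females. African males were highest, European females lowest, and European males and African females close to each other in between. Pearson correlations of log2 levels over the 8 libraries were positive for all 45 pairs of genes, with a median of 0.739, a lowest value of 0.161 (whd with Mtpalpha) and a highest of 0.952 (CPT2 with Arc42). These values are a description over 8 libraries that share the group differences and the scaling of each library.

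**Figure D3:**
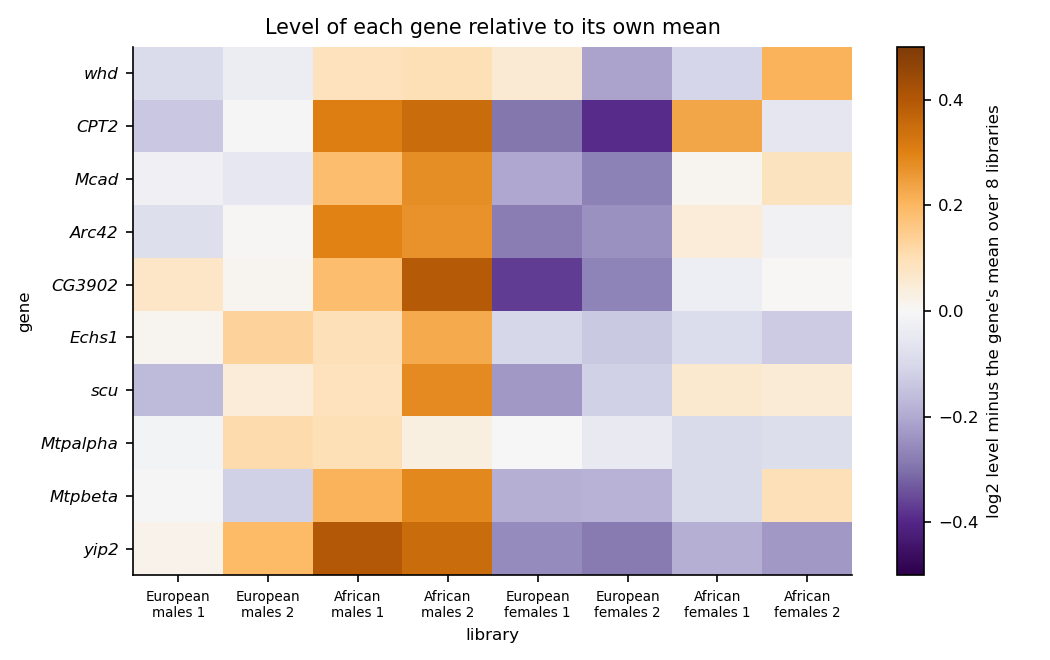
Log2 level of each gene (rows, by step of the pathway) in each of the 8 libraries (columns), as the difference from the mean of that gene over the libraries; orange is above and purple below the mean. The African male columns are above the mean in every row and the European female columns below it, except for whd in European female replicate 1.

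By the same measure, the mean standardized log2 level of the 10 genes was set against 4387 other genes with a mean of at least 10 scaled RPKM. The 5 most alike were Aldh-III (r = 0.986), betaTub97EF (r = 0.980), Sodh1 (r = 0.979), Acsx1L (r = 0.978) and CG6180 (r = 0.978). All 5 had a positive log2 difference between males and females and a negative one between Europe and Africa, from 0.93 and -0.80 for Acsx1L to 0.12 and -0.09 for betaTub97EF. Since the genes were picked for sharing the pattern of the 10, these signs were given in advance. Nothing about their function follows from this order.

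Other genes of fatty acid oxidation, and genes related to it, were taken from 6 lists with 39 genes. Not all of these act in fatty acid oxidation itself, since the lists also hold related dehydrogenases, acyl-CoA synthetases and genes of lipid stores and their regulators. Of these, 15 were higher and 3 lower in males, with a median log2 difference of 0.195, and 5 were higher and 8 lower in Europe, with a median of -0.13. Among 6 other dehydrogenases and electron transfer genes, 5 were higher in males and none lower, with a median of 0.262: Etf-QO, which passes electrons from the flavoprotein to ubiquinone (0.26, adjusted p = 0.00453), the very long-chain dehydrogenase Acadvl (0.27, adjusted p = 0.0104), the predicted glutaryl-CoA dehydrogenase CG9547 (0.42, adjusted p = 0.0159), the predicted isovaleryl-CoA dehydrogenase CG6638 (0.26, adjusted p = 0.0280) and the flavoprotein subunit Etfb (0.19, adjusted p = 0.0295). In the same list 3 genes were lower in Europe and none higher: wal, the other flavoprotein subunit (-0.32, adjusted p = 0.00387), Acadvl (-0.21, adjusted p = 0.0213) and Etf-QO (-0.14, adjusted p = 0.0282). Acadvl had 55.1 and 59.1 scaled RPKM in European males, 68.1 and 66.4 in African males, against 50.0 and 46.7 in European females and 56.5 and 53.1 in African females, the order of groups seen in Arc42.

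Of 8 other hydratases, isomerases and thiolases, 5 were higher in males and none lower. They were CG9577, a predicted dienoyl-CoA isomerase (0.41, adjusted p = 0.00242), the enoyl-CoA isomerase Dci (0.31, adjusted p = 0.00453), its predicted relatives CG4598 (0.25, adjusted p = 0.0217) and CG4594 (0.34, adjusted p = 0.0300), and the acetyl-CoA thiolase Acat2 (0.31, adjusted p = 0.0318). The populations divided this list, with CG8778 (0.26, adjusted p = 0.0404) and the acetyl-CoA thiolase Acat1 (0.17, adjusted p = 0.0340) higher in Europe and CG9577 lower (-0.20, adjusted p = 0.0178). Of 3 other carnitine shuttle genes 1 was called, colt, the carrier that exchanges acylcarnitine across the inner membrane, which was higher in males (0.22, adjusted p = 0.0383).

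Peroxisomes hold a beta-oxidation pathway of their own, begun by acyl-CoA oxidases. Of 7 of its genes, 4 were higher in males, the oxidases Acox57D-p (0.47, adjusted p = 0.00569) and CG4586 (1.06, adjusted p = 0.00944), the multifunctional enzyme Mfe2 (0.22, adjusted p = 0.0105) and the thiolase ScpX (0.23, adjusted p = 0.0218). The oxidase Acox57D-d was lower in males (-0.67, adjusted p = 0.0265). Between the populations, 2 oxidases were higher in Europe, CG4586 (1.04, adjusted p = 0.00797) and Acox57D-p (0.40, adjusted p = 0.0068), and Mfe2 was lower (-0.19, adjusted p = 0.0155). Acox57D-p stood at 73.7 and 74.8 scaled RPKM in European males, 53.9 and 59.3 in African males, against 55.2 and 53.2 in European females and 44.4 and 37.2 in African females. European males were highest and African females lowest, with the other 2 groups overlapping.

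Fatty acids enter these pathways as acyl-CoA, made by acyl-CoA synthetases. Of 7 of these, none was higher in males and CG3961 was lower (-0.44, adjusted p = 0.0101), while CG3961 was higher in Europe (0.89, adjusted p = 0.000526) and CG7400 (-0.73, adjusted p = 0.00322) and Acsf2 (-0.25, adjusted p = 0.0283) were lower. Of 8 genes of lipid stores and their regulators, srl, the fly relative of the mammalian coactivator PGC-1, was lower in males (-0.69, adjusted p = 0.0334) at 1.76 to 2.55 scaled RPKM in males and 3.01 to 4.17 in females. The lipid droplet protein Lsd-2 was lower in Europe (-0.17, adjusted p = 0.0414), and no gene of this list was higher in either comparison. Etfb, Acat2 and Acox57D-d fell outside the rule for naming genes and were named after their values were seen.

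The tricarboxylic acid cycle, which takes up the acetyl-CoA, is the mitochondrial pathway most like the 10 enzymes in position. Of its 9 genes none was higher in males, and 2 were lower, the citrate synthase kdn (-0.27, adjusted p = 0.0205) and the fumarase Fum1 (-0.24, adjusted p = 0.0179). None was higher in Europe and Fum1 was lower (-0.17, adjusted p = 0.0468). The median log2 difference of the 9 was -0.00141 for sex and 0.0279 for population, beside 0.212 and -0.24 for the 10 beta-oxidation enzymes, and the difference between the lists was not tested.

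**Figure D4:**
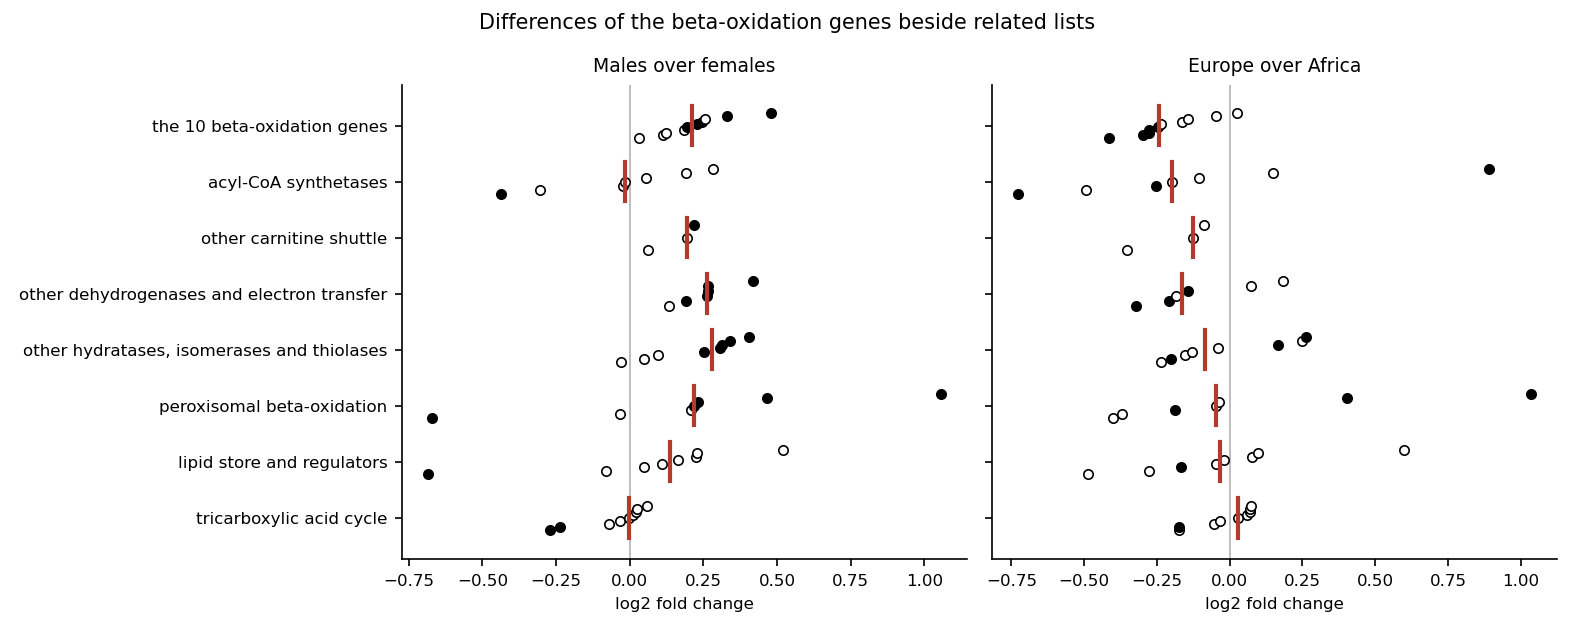
Log2 difference (horizontal axis) of each gene of the beta-oxidation enzymes and of 7 related lists (rows), between males and females (left panel) and between Europe and Africa (right panel); filled points were called, open points were not, and red bars mark the median of each list. The medians of the 10 enzymes are 0.212 and -0.24, and those of the tricarboxylic acid cycle are close to 0.

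The libraries carried the markers of tubules, since the urate oxidase gene Uro, made by principal cells, stood at 1839.5 to 4316 scaled RPKM. The summed level of 5 principal cell markers was 4705 to 5460 in European and 6015 to 8299 in African libraries. Uro was the largest part of each sum. Of the 5, 2 (Uro and Vha55) were lower in Europe, while Irk3 (-0.25), Vha68-2 (-0.17) and CapaR (0.14) were not called for population. By sex the sums were 4705 to 6703 in males and 5434 to 8299 in females, with Uro lower in males. Of 6 stellate cell markers, whose sum was 297 to 337 in European and 367 to 418 in African libraries, Drip was lower in Europe. ClC-a was higher in males, and the stellate sums of 328 to 418 in males and 297 to 380 in females overlapped. The part of these markers in the population differences of the 10 genes was not tested.

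Markers of other tissues differed mostly between the sexes. The sum of 9 fat body markers was 36.9 to 65.4 in males and 898 to 1675 in females, with 4 markers lower in males, the yolk proteins Yp1, Yp2 and Yp3 and the larval storage protein Lsp2, and 2 higher (Obp44a and Obp99b), while the fat body marker Fbp1 was at or under 0.0513 in every library. The fat body, like the tubule, uses beta-oxidation. The most abundant fat body marker, Yp1, was at 2.87 to 8.58 in males and 389 to 675 in females. Most of the female sum came from the yolk proteins, so it does not measure the amount of fat body. The fat body markers apolpp (-1.26, adjusted p = 0.0547, limma) and FASN1 (-0.33, adjusted p = 0.173) were not called for sex. The sum of 4 testis markers was 6.07 to 49.0 in males and 0.270 to 0.664 in females, with all 4 higher in males, and Mst87F, the most abundant, was at 1.80 to 15.6 in males and 0.152 to 0.328 in females. The sum of 3 oenocyte markers was 27.1 to 213 in males and 19.6 to 117 in females, most of it Cyp4g1. Fad2 and eloF were lower in males, while Cyp4g1 had a positive difference that was not called (0.44, adjusted p = 0.7125, limma). None of the markers of muscle, midgut, neurons and hemocytes was called for sex. The 7 muscle markers summed to 84.7 to 143 in males and 92.9 to 140.2 in females, most of them from Mlc2, up and wupA. The 5 midgut markers summed to 23.9 to 1475 in males and 34.8 to 92.4 in females, with the highest sums in the African male libraries, at 1475 in replicate 1 and 242 in replicate 2, and no more than 92.4 in any other library. In replicate 1 alphaTry alone was at 419.8, and in replicate 2 most of the sum was Amy-p, at 182. These are also the libraries with the highest levels of most of the 10 genes. Between these 2 libraries the order was reversed, with the 10 genes summing to 2129 in replicate 1 and 2296 in replicate 2. A link between the midgut markers and the 10 genes was not tested. The 4 neuron markers summed to 5.68 to 8.09 in males and 5.50 to 7.05 in females, and the 3 hemocyte markers, led by NimC1, to 2.94 to 4.57 in males and 2.50 to 3.12 in females. Of the lists of other tissues 1 gene differed between populations, the neuron marker Syt1, lower in Europe. It was at 1.28 to 1.48 in European and 2.67 to 3.94 in African libraries. Its list summed to 5.50 to 5.71 in European and 7.05 to 8.09 in African libraries, a gap that came mainly from Syt1. The other neuron markers, elav (0.10), brp (0.09) and nSyb (-0.15), were not called for population. The part of the other tissue markers in the sex differences was not tested, and no list of ovary markers was examined.

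In a later annotation (release 6 of the genome) some of the 10 genes overlap another gene, and the strand of the reads was not stated. The exons of Mcad overlap those of CG7457 on the opposite strand over 1353 of 1461 bases, and those of whd, CG3902, Echs1, Mtpalpha and Mtpbeta overlap another gene over 7 to 182 bases, so reads there cannot be assigned by strand. CG7457 held 2878 reads in all against 74318 for Mcad, at 3.05 to 4.06 scaled RPKM, and was not called for sex (log2 difference 0.09) or population (0.10). NijB, which overlaps CG3902 over 159 bases, held 5798 reads against 124834 and was higher in males (log2 difference 0.30, adjusted p = 0.0430). CG11777, which overlaps whd over 171 bases, held 1891 reads against 49700 and was lower in Europe (-0.21, adjusted p = 0.0328). No overlap was found for CPT2, yip2, Arc42 and scu.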

How the data were processed

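The authors mapped single-end reads of 50 bases with NextGenMap to the FlyBase transcriptome of genome release 5, credited each gene with the reads on all its isoforms, and deposited one RPKM value per gene and library, over the longest transcript. The labels give ages of 2 to 4 days and anesthesia on ice, while the methods of the study give other values for both. All 8 libraries shared 1 sequencing lane. Every deposited RPKM value came out as a whole number of reads (tolerance 0.01), with 19528634 to 27099855 reads per library. Gene symbols came from reference tables for 13584 genes by gene ID and 261 by CG number, and 97 had no match. RPKM were divided by TMM factors (trims of 30% and 5%) computed from these reads, 0.1 was added, and log2 values of genes with at least 12 reads were fitted in R 4.3.3 with limma 3.58.1 (intensity trend). One model held sex and population as additive factors, and a second one added their product to test the interaction. P-values were adjusted by Benjamini-Hochberg over all 12580 genes, at 5%. The tests had been planned on counts in case the files held them. The fit was tested on simulated data. Named were all 10 members, up to 4 called genes with the smallest adjusted p from each other list and comparison, the most abundant marker, and the 5 genes most alike in pattern. The members and lists were chosen with earlier results of these data known. A gene of peroxisomal oxidation was taken off its list, leaving 7, and is not reported here. Same-numbered replicates of different groups deviated together (correlation of the difference between replicates 1 and 2 of 0.137 to 0.468 for the 6 pairs of groups, 9785 genes). The main models did not include this pairing, and the replicate number entered as a block in 1 alternative only. Alternatives were library size alone, median-of-ratios factors, pseudocounts of 0.01 and 1, no filter, at least 100 reads, voom on the reads and a replicate block over all 8 libraries. Further ones left out each library in turn, without the block, and, added after seeing the data, both African male libraries.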

Additional observations from a re-analysis of the deposited data

Results flagged for a closer look

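Of 40 groups of 4 libraries examined, 10 genes in males, females, European and African libraries, 1 had a library far from the others: scu stood at 309.8 scaled RPKM in African male replicate 2, and the next of the 4 African libraries was at 270.4. The gap was 0.847 of the range of the group, above the 95% critical value of Dixon's test. Chance exceeds that value in about 1 of 20 groups of like libraries. Each group here mixed both sexes or both populations, and each library entered more than 1 group, so this rate need not hold. Without this library the population difference of scu remained negative and was not called.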

How the results depend on the processing

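Each comparison was repeated under 16 alternatives and 1 added later. With the replicate block 6 of the 10 genes were lower in Europe instead of 5, since scu was added (adjusted p = 0.0225), and the block changed no other call of the 10 genes. The count of genes higher in males was 3 to 5 when single libraries were left out, with 3 without either European female library or European male replicate 2. The count lower in Europe was 3 to 5 in the same way, with 3 without African female replicate 2, either European female library or European male replicate 2. Without both African male libraries, an alternative chosen after seeing the data, 2 were higher in males and 2 lower in Europe, and every direction was kept. Fewer libraries leave fewer degrees of freedom. No gene of the 10 was called lower in males, higher in Europe or for the interaction under any of these fits, and without African males the interaction could not be fitted. Among the sex and population differences of the 10 genes and the interaction terms of yip2 and CG3902, the following turned direction. The sex difference of whd was between -0.0374 and 0.0903 when single libraries were left out, the interaction of CG3902 between -0.0359 and 0.162, and the population difference of Echs1 was 0.0384 with library size alone. That scaling moved the median of all genes by -0.02 for sex and by 0.08 for population. Over all genes, 1492 were called for sex (648 to 1630 under the 16 alternatives) and 1503 for population (781 to 1970). With 2 libraries a group, the 95% interval of whd for sex (-0.16 to 0.22) still held a difference as large as that called in Mcad.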
